A study of Gallus gallus with 6 samples.

Results

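The genes described here are the 5′ end of the HoxA cluster of the chick and the homeobox gene that follows it. They are HOXA9, HOXA10, HOXA11, HOXA13 and EVX1, 5 of the 21062 genes in the tables of normalized counts, and all 5 were among the 16324 genes abundant enough to be tested. They were chosen by name and by their adjacency on chromosome 2. No measured value entered that rule, but earlier results of these data were known. HOXA13 carries no symbol in the tables, where it is the protein-coding gene ENSGALG00000027234 of the homeobox transcription factor family. It is called HOXA13 here because the selection of genes names that identifier so, and the RefSeq annotation of a later chicken assembly places HOXA13 at the same point in the order, between HOXA11 and EVX1.

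RNA-sequencing was performed on entire explants of wild-type chick embryos, each cut from the posterior-distal part of a wing bud and not the whole bud. They were dissected at stage HH20, embedded in matrigel and cultured for 48 h. In 3 libraries the medium held DMSO, the solvent, and in the other 3 it held SU5402 at 5 µM in DMSO, added at 0 h. Each library came from 1 of 3 replicate experiments per treatment, in which several explants were collected. SU5402 blocks the kinase activity of the Fgf receptors and, as background, also acts on Vegf receptors, so it is not a tool for 1 receptor family alone.

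Hox genes encode transcription factors that give cells their position along an axis, and their order on the chromosome matches the order in which they are switched on. In the limb bud the 5′ genes of the HoxA and HoxD clusters come on late. HOXA9 and HOXA10 act early and proximally, HOXA11 marks the future forearm, and HOXA13 marks the future wrist and digits. The distal bud lies under the apical ectodermal ridge, a thickened strip of ectoderm that secretes Fgf8 and other Fgfs, whose receptors SU5402 targets. EVX1 encodes a homeobox repressor and lies just beyond HOXA13, as EVX2 does beyond HOXD13.

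The libraries held 25849833 to 44261768 reads. The first principal component, with 67.2% of the variance, separated the treatments. TBX5, the gene that marks forelimb over hindlimb, had summed FPKM of 185 to 191 with DMSO and 178 to 189 with SU5402, and TBX4, which marks the leg, averaged 17.2 and 14.8 normalized counts. PITX1, the other leg marker, rose from a mean of 54.6 to 237 normalized counts (log2 fold change 2.05, limma adjusted p = 0.0039), and the leg markers together summed to 1.24 to 1.34 FPKM with DMSO and 3.46 to 6.35 with SU5402. Limb mesenchyme markers summed to 581 to 618 FPKM with DMSO and 553 to 596 with SU5402, but their members moved both ways, with 2 of 7 lower (MSX1 by over 2-fold) and 2 higher (TWIST2 by over 2-fold). The explants also held other cells, whose markers moved with the treatment: 5 of 5 endothelial markers fell (summed FPKM 117 to 123 with DMSO, 20.9 to 24.5 with SU5402), 4 of 4 muscle markers rose (14.3 to 17.8 against 68.4 to 99.97), and 5 of 6 ectoderm markers rose while SP8, a gene of the ridge, fell (86.1 to 106 against 167 to 190). Of the cartilage markers, 3 of 4 fell (188 to 248 against 142 to 174). The 3 red blood cell markers tested rose (89.9 to 119 against 475 to 774), and of 4 macrophage markers 3 rose and 1 fell (3.29 to 3.53 against 5.45 to 5.81). The 3 glial markers found did not pass the test (0.716 to 1.64 against 0.741 to 1.72). Markers counted as fallen or risen passed limma's test at an adjusted p below 0.05. Under that rule 16.0% of all genes tested were lower and 14.4% higher. None of the markers found was at 0 in every library. The part of these changes in the results below was not tested.

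Of the 5 genes, 4 were lower in SU5402-treated explants and 0 were higher. HOXA13 was almost lost, 40.6-fold lower, whereas HOXA9, HOXA10 and HOXA11 were 2.00-, 1.84- and 2.32-fold lower and stayed well expressed. EVX1 was low in both treatments and varied too much between libraries for a difference to be called. Fold changes are on the scale of log2(normalized count + 1), where a normalized count is a gene's reads divided by the size factor of its library. Significance is by limma's moderated test at an adjusted p below 0.05 (Benjamini-Hochberg, over all genes tested). Under that rule 2607 of the 16324 genes tested (16.0%) were lower with SU5402 and 2351 (14.4%) were higher. Under the further condition of a change of over 2-fold, 741 genes (4.54%) were lower, among them HOXA11 and HOXA13, and 1022 (6.26%) were higher, none of them among the 5. In 4 of the 5 genes every SU5402 library lay below every DMSO library, as in 4173 (25.6%) of all genes tested, and 3944 genes (24.2%) showed the opposite order. In whole explants, fewer cells that express a gene and less RNA of it per cell cannot be told apart.

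**Figure D1:**
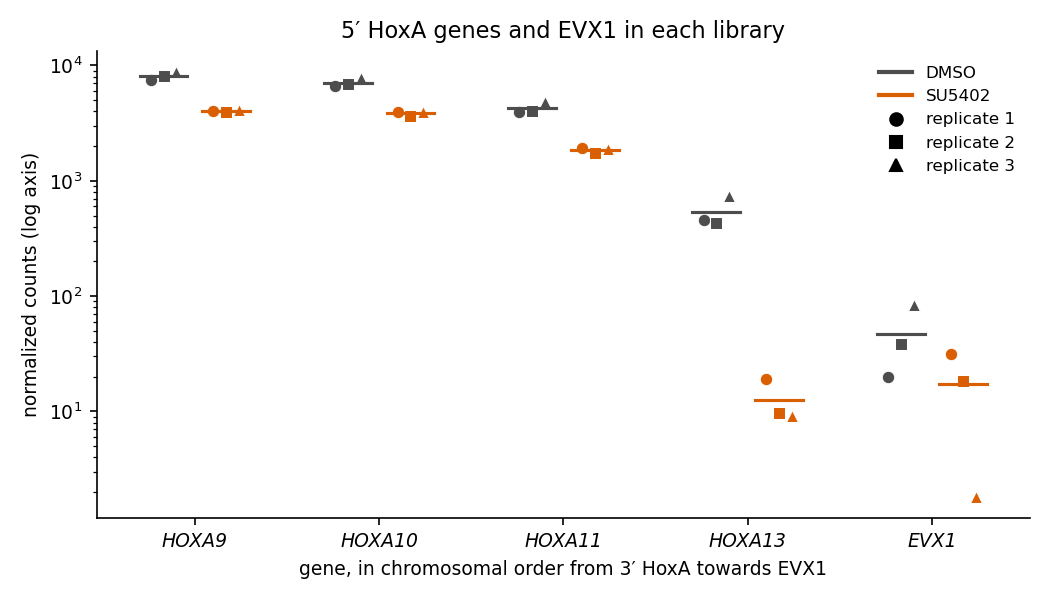
Normalized read count (log axis) of each of the 5 genes in the 3 DMSO libraries (grey) and the 3 SU5402 libraries (orange), with 1 marker shape for each replicate number and a bar at the mean of each treatment. HOXA9, HOXA10 and HOXA11 step down by a similar small amount, HOXA13 drops from between 429.7 and 737 to between 9.14 and 19.0, and only the EVX1 libraries overlap.

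HOXA9 lies at chr2:32643254-32645922 on the minus strand of the GRCg6a assembly, the build of all positions below. It is a patterning gene of the proximal limb and, in mouse forelimbs, acts with its Hox9 paralogues to place the Shh domain. Its normalized counts were 7499, 8127 and 8785 with DMSO and 4069, 3969 and 4142 with SU5402. The treatments did not overlap, and the SU5402 libraries were close together, with a coefficient of variation of 2.14%. The mean fell from 8137 ± 643 to 4060.4 ± 86.9 (SD, n = 3 each), a log2 fold change of -0.9999 (SE 0.08, 95% interval -1.19 to -0.81, limma adjusted p = 9.7e-04). This value sits on the 2-fold mark itself. It fell short of the mark as fitted, and 6 of 16 alternative settings, edgeR and DESeq2 among them, put it just past.

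HOXA10 lies at chr2:32651349-32654714 on the minus strand and is needed, with Hox10 paralogues, for the upper segment of mouse limbs. Its normalized counts were 6621, 6865 and 7760.4 with DMSO and 3928, 3619 and 3966 with SU5402, again without overlap. Its mean fell from 7082 ± 600.0 to 3838 ± 190.4 (SD, n = 3 each), with a log2 fold change of -0.88 (SE 0.08, 95% interval -1.09 to -0.67, limma adjusted p = 0.0019). Of the 4 genes that fell, HOXA10 kept the largest share of its DMSO level, 54.3%.

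HOXA11, at chr2:32662566-32666093 on the minus strand, is required with HOXD11 for the radius and ulna in the mouse. It had 3983, 4045 and 4847 normalized counts with DMSO and 1913, 1736 and 1883 with SU5402. The highest SU5402 library was thus far below the lowest DMSO library. The mean fell from 4292 ± 482 to 1844 ± 94.4 (SD, n = 3 each), a log2 fold change of -1.21 (SE 0.10, 95% interval -1.46 to -0.96, limma adjusted p = 0.0012). The interval holds the 2-fold mark. In limma's test against the 2-fold mark itself, the adjusted p was 0.61.

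HOXA13, at chr2:32680060-32682168 on the minus strand, is the last Hox gene of the cluster and is needed for the wrist and digits of the mouse autopod. Its normalized counts were 454, 429.7 and 737 with DMSO and 19.0, 9.63 and 9.14 with SU5402. Behind the SU5402 values stood 17, 11 and 10 reads, a sum of 38 (95% exact Poisson interval 26.9 to 52.2, counting error only), against 1593 reads with DMSO. The gene therefore remained detected in every treated library, at 2.46% of its DMSO level on the same scale. Its mean went from 540.2 ± 171 to 12.6 ± 5.57 (SD, n = 3 each), a log2 fold change of -5.34 (SE 0.35, 95% interval -6.22 to -4.47, limma adjusted p = 6.4e-04). Ordered by fitted fold change, this was the 22nd largest fall of the 16324 genes and the largest of the 32 Hox genes tested. Next among those Hox genes came HOXC13, named after its value was seen, and then HOXD13.

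EVX1, at chr2:32714893-32718158 on the plus strand, is transcribed away from the cluster. Its normalized counts were 19.9, 38.2 and 83.5 with DMSO and 31.3, 18.4 and 1.83 with SU5402, from 15, 50, 78, 28, 21 and 2 reads in the same order. The highest value was in DMSO replicate 3 and the lowest in SU5402 replicate 3, and the treatments overlapped in the other 4 libraries. The mean was 47.2 ± 32.8 with DMSO and 17.2 ± 14.8 with SU5402 (SD, n = 3 each). The log2 fold change was -1.76 (SE 1.05, 95% interval -4.40 to 0.88, limma adjusted p = 0.26), an interval that holds both no change and a fall as large as -4.40. Leaving out SU5402 replicate 3 moved it to -0.71 and leaving out SU5402 replicate 1 to -2.47.

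Because normalized counts grow with gene length, levels are compared between genes in FPKM, in which reads are scaled by gene length and by a library total. With DMSO the order followed the chromosome. HOXA9 was highest at 141 ± 11.2 FPKM, then HOXA10 at 104 ± 8.85, HOXA11 at 58.3 ± 6.54, HOXA13 at 10.1 ± 3.18 and EVX1 at 1.16 ± 0.807 (SD, n = 3 each). In this order the DMSO values of adjacent genes did not overlap. With SU5402 the order was HOXA9 at 70.6 ± 1.51, HOXA10 at 56.6 ± 2.81, HOXA11 at 25.05 ± 1.28, EVX1 at 0.423 ± 0.364 and HOXA13 at 0.235 ± 0.104. The last 2 of these overlapped, since EVX1 ranged from 0.0450 to 0.772 FPKM and HOXA13 from 0.171 to 0.355. By mean FPKM among the 32 Hox genes tested, HOXA9 had rank 3 with DMSO and rank 2 with SU5402, HOXA10 rank 4 in both, HOXA11 rank 7 and rank 8, and HOXA13 rank 19 and rank 31.

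Added up, the 5 genes gave 291, 306 and 349 FPKM with DMSO and 156, 147 and 156 FPKM with SU5402. The sum thus went from 316 ± 29.9 to 153 ± 5.46 (SD, n = 3 each), and most of that loss was in HOXA9 and HOXA10, the most abundant genes. The make-up of the sum moved less for these. HOXA9 held 44.9% ± 1.17 with DMSO and 46.2% ± 0.836 with SU5402, values that overlapped between libraries. HOXA10 went from 33.1% ± 0.376 to 37.0% ± 0.531 and HOXA11 from 18.5% ± 0.484 to 16.4% ± 0.294, without overlap in either case. HOXA13 made up 2.91%, 2.62% and 3.94% of the sum in the DMSO libraries and 0.228%, 0.123% and 0.109% in the SU5402 libraries (SD and n as above).

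**Figure D2:**
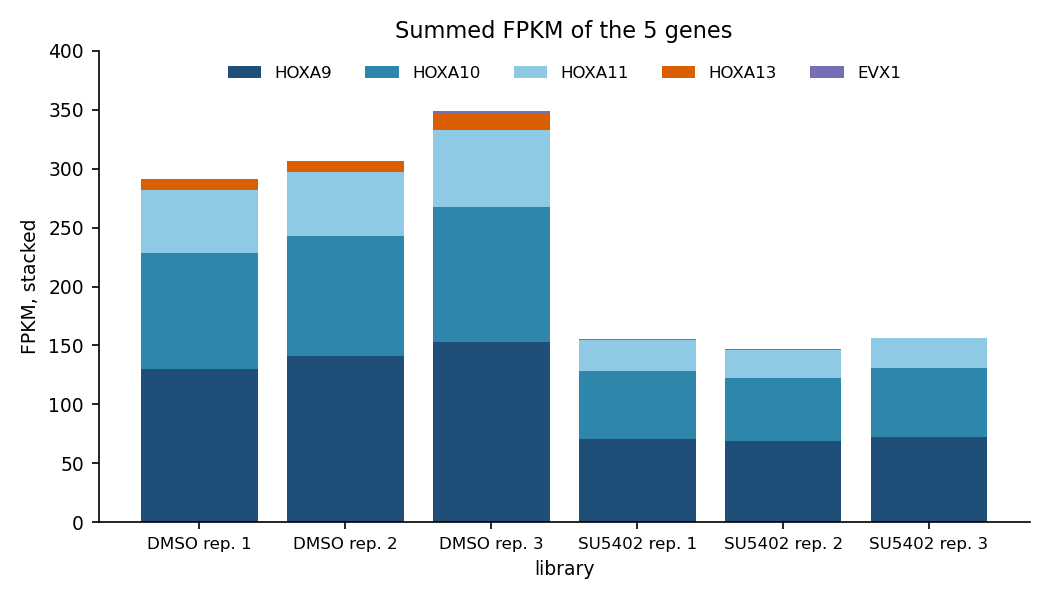
Summed FPKM of the 5 genes in each of the 6 libraries, stacked by gene on a linear axis from 0. The stacks stand at 291, 306 and 349 FPKM with DMSO and at 147 to 156 FPKM with SU5402, and HOXA9 and HOXA10 fill most of each, while the HOXA13 layer seen with DMSO is too thin to see with SU5402.

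Whether neighbouring genes changed by different amounts was examined as the log2 ratio of their normalized counts (1 added) within each library. The ratio of HOXA13 to HOXA11 was -3.13, -3.23 and -2.72 with DMSO and -6.58, -7.35 and -7.54 with SU5402. It was lower by 4.13 on average with SU5402 (SU5402 minus DMSO, -4.13, SE 0.33), so HOXA13 changed far more than its nearest Hox neighbour, whose start lies 16.1 kb away. Against HOXA9 and HOXA10 the differences were -4.34 (SE 0.37) and -4.46 (SE 0.35).

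Between the other Hox neighbours the differences were small but also without overlap. The ratio of HOXA11 to HOXA10 was -0.73, -0.76 and -0.68 with DMSO and -1.04, -1.06 and -1.07 with SU5402, a difference of -0.33 (SE 0.03). That of HOXA10 to HOXA9 was -0.18, -0.24 and -0.18 against -0.05, -0.13 and -0.06, a difference of 0.12 (SE 0.03). By these estimates the falls were not graded evenly along the chromosome. The fitted fall of HOXA10 was a little smaller than that of HOXA9, which lies on its 3′ side. The permutation test below cannot settle this order, since 3 libraries against 3 give no p under 0.1. The ratio of EVX1 to HOXA13 rose by 3.58 (SE 0.96) in the SU5402 libraries, from between -4.45 and -3.13 to between -1.84 and 0.87. In the exact permutation test over libraries (two-sided), each of these 6 ratios had p = 0.1 (adjusted over the 6 pairs, 0.1), which is the smallest value that 3 libraries against 3 can give. The pairs share genes and are not independent. How often ratios of other genes overlap was not examined, but single genes without overlap made up 25.6% (lower) and 24.2% (higher) of all genes tested.

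**Figure D3:**
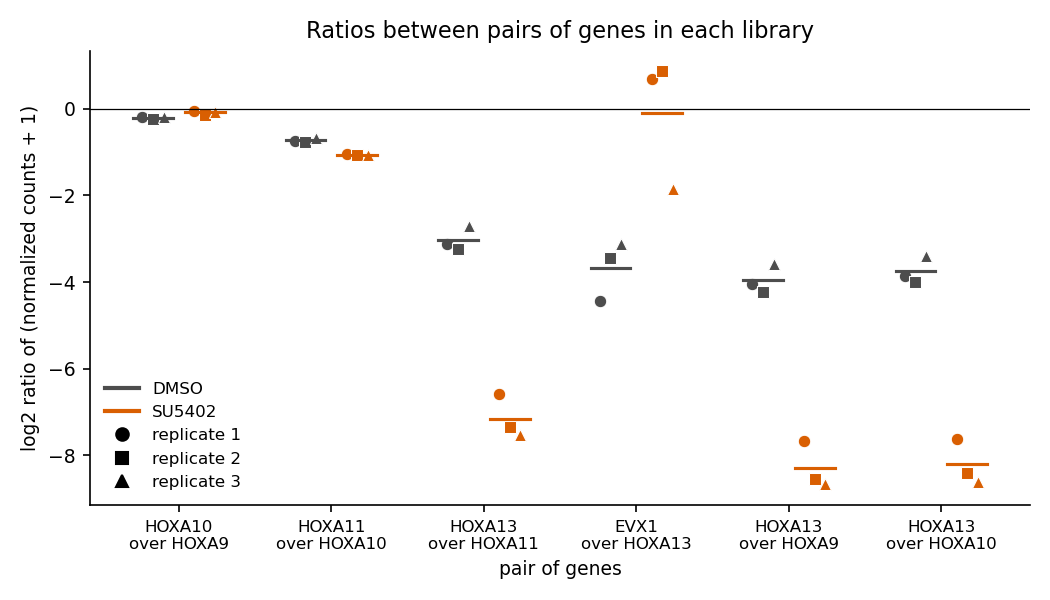
Log2 ratio of normalized counts (1 added) for 6 pairs of the genes in each library, DMSO in grey and SU5402 in orange. The 3 pairs of HOXA13 with another HoxA gene lie between -4.24 and -2.72 with DMSO and between -8.67 and -6.58 with SU5402, the 2 pairs among HOXA9, HOXA10 and HOXA11 differ by 0.12 and -0.33 between treatments, and in none of the 6 do the treatments overlap. The pairs share genes and are not independent.

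Among the DMSO libraries, all 5 genes were highest in replicate 3, as were 30.9% of all genes tested. Its value over the mean of the other DMSO libraries was 1.12 for HOXA9, 1.15 for HOXA10, 1.21 for HOXA11, 1.67 for HOXA13 and 2.88 for EVX1. Over all genes tested the median of this ratio was 0.994, and 17.8%, 15.1%, 11.5%, 3.41% and 0.827% of genes had a ratio at least as high as that of HOXA9, HOXA10, HOXA11, HOXA13 and EVX1. HOXD9 to HOXD13 were also highest there, with ratios of 1.11 to 1.18. The spread of the genes between DMSO libraries rose in the same order, with coefficients of variation of 7.90%, 8.47%, 11.2%, 31.6% and 69.4%. Without DMSO replicate 3 the log2 fold changes of HOXA9, HOXA10, HOXA11 and HOXA13 remained below 0 with adjusted p below 0.05. Also highest in DMSO replicate 3 were FGF8, the Fgf of the ridge (1.87), FGF10 (1.29), MKP3 (1.07), HOXA3 (1.10) and HOXA4 (1.11). So were the cartilage markers ACAN (1.86) and SOX9 (1.26). SHH was not (665 normalized counts, against 760.0 in DMSO replicate 2), nor was EVX2 (107, against 117 in that library). HOXA2, HOXA5, HOXA6, HOXA7, MEIS1 and the cartilage marker MATN1 were not highest in DMSO replicate 3 either.

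The annotated rows from 500 kb before HOXA9 to 500 kb beyond EVX1 place these falls in their surroundings. Of 22 tested rows described in that window beside the 5 genes, 7 were lower and 0 were higher at an adjusted p below 0.05. Over all genes tested, 16.0% were lower and 14.4% higher under that rule. Of HOXA2 to HOXA7, Hox genes on the 3′ side, 3 of 6 fell and 0 did so by over 2-fold. HOXA3 (-0.68, SE 0.08, adjusted p = 0.0039), HOXA6 (-0.45, adjusted p = 0.011) and HOXA2 (-0.42, adjusted p = 0.023) fell by less than 2-fold by limma, and HOXA2 lost its call when DMSO replicate 2 or 3 or SU5402 replicate 1 or 2 was left out (adjusted p up to 0.070). HOXA4 (-0.28), HOXA7 (-0.24) and HOXA5 (-0.15) did not pass the test, HOXA7 doing so without DMSO replicate 3 (adjusted p = 0.035). With edgeR, HOXA4 (adjusted p = 0.0081) and HOXA7 (adjusted p = 0.022) passed as well. In 6 of 6 of HOXA2 to HOXA7 every SU5402 library lay below every DMSO library, as in 25.6% of all genes tested. The median of these 6 was -0.35, beside 0.01 over all genes tested. The span of the HOXA3 row overlaps those of HOXA4, HOXA5 and HOXA6 on the same strand, so these rows may not be independent.

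Outside the cluster, 1 of 7 tested protein-coding genes fell, beside 16.0% of all genes tested. It was SNX10 (-0.84, SE 0.15, limma adjusted p = 0.013), which encodes a sorting nexin of the endosome. The other 6, HNRNPA2B1, CBX3 and SKAP2 on the 3′ side of the cluster and HIBADH, TAX1BP1 and JAZF1 on the EVX1 side, lay between -0.15 and 0.26 and did not pass, JAZF1 (0.26) doing so without DMSO replicate 1 (adjusted p = 0.020). In 4 of these 7 genes, SNX10, CBX3, SKAP2 and TAX1BP1, every SU5402 library lay below every DMSO library, as in 25.6% of all genes tested. The lack of overlap was thus not confined to the Hox genes. On the EVX1 side the values came back near 0 at the first tested gene, HIBADH (0.07, adjusted p = 0.50).

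**Figure D4:**
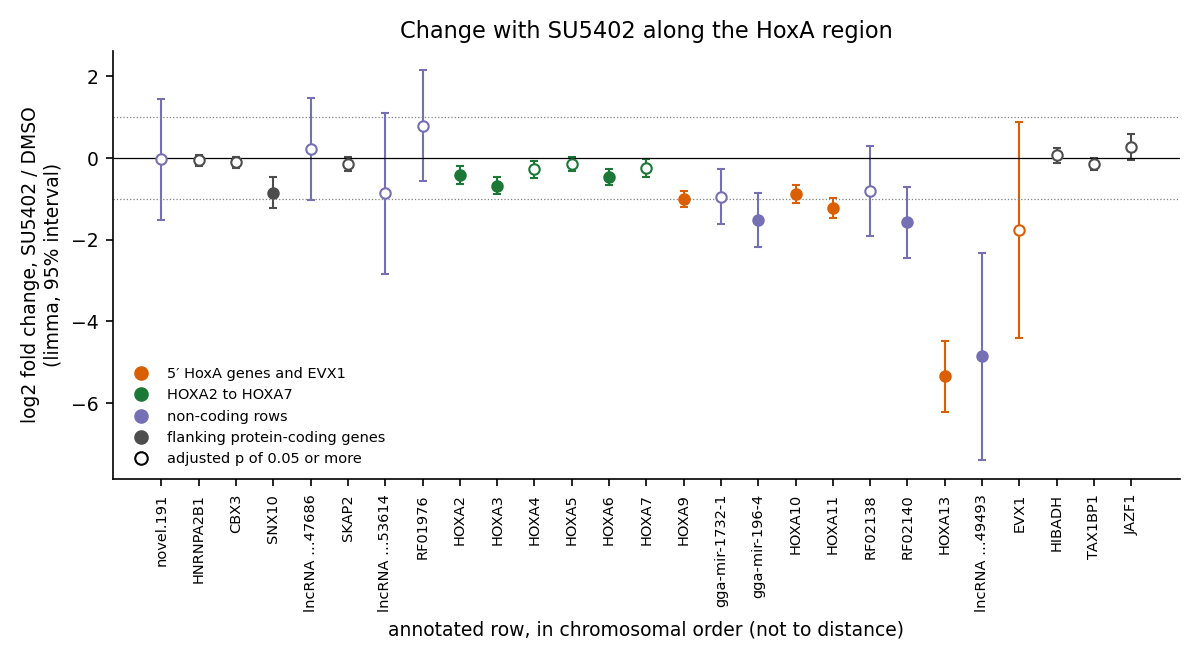
Log2 fold change, SU5402 over DMSO, with limma's 95% interval for 27 tested rows in chromosomal order from 500 kb before HOXA9 to 500 kb beyond EVX1; filled points have an adjusted p below 0.05. The 5 genes (orange) include the lowest point, HOXA13 at -5.34, the HOXA2 to HOXA7 genes (green) lie between -0.68 and -0.15, the non-coding rows are purple, and the flanking protein-coding genes (grey) lie between -0.84 and 0.26.

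Between HOXA9 and EVX1 the tables hold 7 non-coding rows, of which 5 were tested. The libraries were made from poly-A RNA, so a microRNA row counts fragments of longer transcripts over its locus and not the mature microRNA. The locus of gga-mir-196-4 (chr2:32649875-32649968, minus strand), between HOXA9 and HOXA10, had 430.4, 551 and 615 normalized counts with DMSO and 222, 128 and 220.3 with SU5402 (-1.51, SE 0.26, limma adjusted p = 0.012). That of gga-mir-1732-1, beside it, had 875, 1275 and 1399.6 against 665, 441 and 752 (-0.94, adjusted p = 0.052), short of the threshold, which it passed without DMSO replicate 1 (adjusted p = 0.041) and with edgeR (adjusted p = 0.0014). In the RefSeq annotation the HOXA9 gene model overlaps both microRNA loci and HOXA10. There HOXA10-AS also overlaps HOXA9 and HOXA10, and LOC107052544 overlaps HOXA11. In the deposited tables, by contrast, no row overlaps any of the 5 genes. Whether the libraries kept strand is not given in the sources used here, so reads of the 5 genes and of transcripts antisense to them cannot be told apart.

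The lncRNA ENSGALG00000049493 (chr2:32695758-32697728, plus strand) lies between HOXA13 and EVX1. It had 43.7, 52.8 and 100.7 normalized counts with DMSO and 0, 0 and 9.14 with SU5402, or 33, 69 and 94 reads against 0, 0 and 10. The treatments did not overlap, and the log2 fold change was -4.85 (SE 1.01, limma adjusted p = 0.020). The call rests on few reads and was lost without SU5402 replicate 1 or without SU5402 replicate 2 (adjusted p up to 0.058). Near HOXA11, the RNA family row RF02140 was also lower (17.2, 22.2 and 34.3 against 11.2, 5.25 and 6.40, -1.57, SE 0.35, adjusted p = 0.024) and lost its call when replicate 2 or 3 of either treatment was left out (adjusted p up to 0.073). RF02138 did not pass (-0.81, adjusted p = 0.22).

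The 5′ HoxD genes and EVX2 fell as well, 6 of 6 by over 2-fold with a median log2 fold change of -1.60. Among all genes tested, 4.54% were lower by over 2-fold. HOXD9 (-1.63), HOXD10 (-1.57) and HOXD11 (-1.57) had larger fitted falls than HOXA9, HOXA10 and HOXA11, and HOXD13 (-2.86) a smaller one than HOXA13. HOXD13 kept 669, 509 and 968 normalized counts in the SU5402 libraries, from 4498, 5018 and 5612 with DMSO. HOXD12, which has no HoxA counterpart, fell by 1.07 on the log2 scale (limma adjusted p = 0.0079) and was short of 2-fold without DMSO replicate 3 or SU5402 replicate 2 (-0.94 at the smallest). EVX2 had 86.1, 117 and 107 normalized counts with DMSO and 11.2, 0.876 and 0 with SU5402 (-5.19, SE 0.94, limma adjusted p = 0.013). EVX2 was therefore called lower and its relative EVX1 was not. None of these differences between the clusters was tested.

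The genes of the pathway that SU5402 blocks responded in the same libraries. Of 16 tested genes of Fgf signalling, 14 were lower and 2 higher, 11 and 1 of them by over 2-fold, with a median of -1.67. The shares over all genes tested were 16.0% lower and 14.4% higher, or 4.54% and 6.26% by over 2-fold. Among the log2 falls were those of MKP3, the phosphatase that Fgf induces to restrain Erk (-2.75), ETV4, a transcription factor of the pathway (-2.70), and FGF10, the mesenchymal ligand that maintains the ridge (-2.60). SPRY3, an inhibitor of the pathway, had 0 reads in all 3 treated libraries. Its DMSO mean was 61.1 times a floor of 3 reads per treated library, and that of FGF8 was 36.8 times this floor. These ratios leave out the spread between DMSO libraries. Neither ratio moves the median. FGF9 rose (1.94, adjusted p = 2.3e-04), as did the receptor FGFR2 (0.49, adjusted p = 0.0069).

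Retinoic acid and the Meis factors mark the proximal limb, where they oppose distal Hox genes. Of 10 tested genes of that list, 2 fell and 2 rose, beside 16.0% and 14.4% of all genes tested. The median of the list was -0.06. MEIS1, a homeobox cofactor of Hox proteins, rose from 5728 ± 134 to 8456 ± 445 normalized counts (SD, n = 3 each), a log2 fold change of 0.56 (SE 0.06, limma adjusted p = 0.0030). CYP26B1, the enzyme that breaks down retinoic acid in the distal bud, fell from 3755 ± 376 to 1727 ± 93.2, or by 1.12 on the log2 scale (SE 0.09, limma adjusted p = 0.0013). The receptor RARA fell (-0.78, adjusted p = 0.0010) and RARB rose (0.44, adjusted p = 0.014), the latter call being lost without DMSO replicate 2 or 3 (adjusted p up to 0.051).

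Sonic hedgehog, the signal of the posterior limb, and 5′ Hox genes are known to depend on each other in mouse limbs. SHH fell from 611 ± 182 to 10.96 ± 1.19 normalized counts (SD, n = 3 each), with 408, 760.0 and 665 in the DMSO and 12.3, 10.5 and 10.1 in the SU5402 libraries (-5.63, SE 0.25, limma adjusted p = 2.6e-04). Of 11 tested genes of the pathway, 5 fell and 3 rose, each by over 2-fold, with a median of -0.19. Such falls and rises made up 4.54% and 6.26% of all genes tested. The largest rise was GAS1, a co-receptor (1.59). GLI3, the repressor that limits 5′ Hox expression, did not pass the test (0.11, adjusted p = 0.39).

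Hox clusters are held silent by Polycomb complexes and opened by Trithorax proteins. Of 17 tested genes of these complexes and of cohesin, 4 fell and 2 rose, and 0 changed by over 2-fold. At the same adjusted p, 16.0% of all genes tested fell and 14.4% rose. The list is incomplete, since SUZ12, RING1, KMT2A, KMT2B, MEN1, KDM6A, KDM6B and CTCF were not matched by symbol. The largest fall in this list was that of CBX2, a Polycomb subunit (-0.47, limma adjusted p = 0.0039). EZH2, the methyltransferase that places the silencing mark, did not pass (0.15, adjusted p = 0.098), nor did CBX7, the largest estimated rise (0.28, adjusted p = 0.21). With edgeR, EZH2 (adjusted p = 0.033), EED (0.039) and JARID2 (0.013) passed. The other 5 changes of the list were small (-0.40 to 0.27), and each lost its call without single libraries. These were EZH1 without any 1 library but SU5402 replicate 1, CBX8 without any 1 but DMSO replicate 1, and PHC1, RAD21 and SMC3 without any 1 of the 6. The list's median was -0.08.

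Genes that lie downstream of 5′ HoxA proteins in mouse limbs formed the last list, of which 11 were tested. It shares SHH, FGF8, FGF10 and ALDH1A2 with the lists above. Of the 11, 9 were lower and 0 higher at an adjusted p below 0.05, beside 16.0% and 14.4% of all genes tested. Falls of over 2-fold numbered 4 (4.54% of all genes tested), and the median of the 11 was -0.81. Apart from the shared genes, BMP2 (-1.10, SE 0.19, limma adjusted p = 0.011) and BMP7 (-0.88, adjusted p = 0.0073), ligands that act in the digit region, fell. BMP2 fell by less than 2-fold without SU5402 replicate 2 (-0.90). HAND2, a factor that switches on Shh, fell by 0.81 (adjusted p = 0.0027). ENPP2 (-0.61), RUNX2 (-0.66) and EPHA7 (-0.42, adjusted p = 0.041) lost their calls when 1 library was left out, for ENPP2 any but DMSO replicate 2, for RUNX2 any but SU5402 replicate 1 and for EPHA7 any but SU5402 replicate 3. SHOX2 (-0.27, adjusted p = 0.11), which passed without SU5402 replicate 3 (adjusted p = 0.025) and with edgeR (adjusted p = 0.012), and ALDH1A2 (-0.01, adjusted p = 0.92) did not pass.

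Genes whose profile over the 6 libraries was most like that of each gene were found by the Euclidean distance between log2 values centred on their mean. All profiles come from the same 6 libraries and share their treatment contrast. HOXA9 was nearest to MECOM (distance 0.07, log2 fold change -0.98), PIK3IP1 (0.11) and EPHA2 (0.11), and HOXA10 to ANPEP (0.13), FBLN7 (0.13) and STARD8 (0.14). HOXA11 was nearest to NDNF (distance 0.06, log2 fold change -1.25) and next to CYP26B1 (0.13), the retinoic acid enzyme above, and TMEM47 (0.16). All of these distances were smaller than those within the cluster, which were 0.17 for HOXA9 and HOXA10, 0.29 for HOXA9 and HOXA11 and 0.41 for HOXA10 and HOXA11. The nearest genes were picked as the 3 smallest distances among all tested genes with a symbol, whereas the pairs within the cluster were fixed. Smaller values were therefore close to certain, and they do not show that these genes resemble others more than each other.

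HOXA13 had no neighbour as close among the genes with a symbol. The nearest were ZNF366 (distance 0.92), KLHL4 (0.96, log2 fold change -5.02) and FLT1 (0.99, log2 fold change -4.89), which encodes a Vegf receptor of endothelial cells. ZNF366 was at 0 with SU5402, and its DMSO mean was 15.4 times a floor of 3 reads per treated library. The distance of HOXA13 to HOXA11, its neighbour in the cluster, was 5.12. EVX1 lay nearest to ADIPOQ (1.01), RF00100 (1.32) and DYTN (1.35), rows with lower means than EVX1 in both treatments (13.6, 18.6 and 17.8 normalized counts with DMSO).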

How the data were processed

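Total RNA of the explants was poly-A selected and sequenced in 6 libraries (3 per treatment). Per the labels and the study's methods, the authors mapped reads with HISAT2 (2.0.5) to GRCg6a and counted them on genes with featureCounts (1.5.0-p3). One deposited table per library holds the signal of each gene as reads divided by the DESeq2 (1.20.0) size factor, that is normalized counts. A second holds FPKM, which the authors computed with gene length and 1 total (33590126) for all libraries. The tables also hold group means, fold changes and p-values of the authors' own comparison, which were not used. Columns of other samples numbered 0.

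Every normalized value was a whole multiple of 1 step in its library (100% of values, tolerance 0.01 read), which gave the reads. The design named limma for size-factor-normalized values, so limma (3.58.1, R 4.3.3), without trend, was run on log2(normalized count + 1) for 16324 genes, those with normalized counts of 10 or more in 3 or more libraries, with Benjamini-Hochberg adjustment. The script was tested on simulated counts. Replicate numbers were not treated as pairs, since deviations of same-numbered libraries correlated by 0.04, 0.00 and 0.06. With 3 libraries per treatment, such values cannot exclude pairing. Same-treatment libraries differed by more than sampling noise (chi-square per degree of freedom 8.50 to 14.2).

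Alternatives were edgeR (4.0.16) and DESeq2 (1.42.0) on recovered reads, other pseudocounts and filters, FPKM, limma's treat, a trend, a replicate block and leaving out each library. The genes and lists were chosen with earlier results of these data known. Genes named are the 5, all rows within 500 kb, the HoxD counterparts, the extremes of each list with SHH, FGF8, MKP3, MEIS1 and CYP26B1, and the 3 nearest profiles of each gene. Other list genes, and HOXC13, were named after their values were seen. MEIS2, MEIS3 and PBX2 were not matched by symbol, nor were 8 of the 25 Polycomb, Trithorax and loop genes, EPHA6 and DUSP6, which is listed as MKP3. FGF4 was too low to test. Of the rows in the window and the lists, 2 are not reported here. In the RefSeq table (GRCg7b), used for names, order and which gene models overlap, 4 of 4 symbols matched. Depth limits HOXA13 with SU5402, EVX1 and the lncRNA, which had under 100 reads per library.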

Additional observations from a re-analysis of the deposited data

How the results depend on the processing

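HOXA13 was lower with an adjusted p of at most 0.011 under all 16 alternatives. On FPKM with 1 added its log2 fold change was -3.13, since 1 is large beside its FPKM. Against the 2-fold mark (limma's treat), HOXA11 (-1.21, adjusted p = 0.61) lost its call of over 2-fold, and 230 genes were called lower and 224 higher. HOXA9 (-0.9999, adjusted p = 1) and HOXA10 (-0.88, adjusted p = 1) were short of that mark as fitted, so they could not pass this test. HOXA9 was over 2-fold with edgeR (-1.0006 with TMM, -1.0014 with RLE) and DESeq2 (-1.0015), and at -1.06, -1.0016 and -1.01 without DMSO replicate 1, SU5402 replicate 1 or SU5402 replicate 3. Calls numbered 741 lower and 1022 higher, 762 and 1091 with edgeR TMM, and 450 and 453 on FPKM with 1 added, where 13956 genes were tested. The filter of 50 normalized counts left 13799 genes to test, of which 637 were called lower and 793 higher. Leaving out 1 library gave 580 to 726 lower and 742 to 1008 higher. Log2 fold changes then ranged from -1.06 to -0.94 for HOXA9, -0.93 to -0.81 for HOXA10, -1.26 to -1.12 for HOXA11, -5.66 to -5.10 for HOXA13 and -2.47 to -0.71 for EVX1, whose adjusted p was 0.087 to 1 over 14 alternatives and which had no value under the FPKM and 50-count filters.

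Whether libraries of the same replicate number share an experiment is not given in the sources used here. With the replicate block, 677 genes were called lower and 878 higher, and adjusted p was 0.012 for HOXA9, 0.015 for HOXA10, 0.012 for HOXA11, 0.011 for HOXA13 and 0.38 for EVX1. The block changed no call of the 5 genes. The block ended those of HOXA2 (adjusted p = 0.063), RF02140 (0.078), RARB (0.067), EPHA7 (0.074) and ENPP2 (0.056). It also ended those of FGFR3, 1 of the genes called lower in the Fgf list (0.058), and of EZH1, PHC1, RAD21 and SMC3 in the Polycomb list (0.063 to 0.13).

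Precision is limited by 3 libraries per treatment, by the low reads of HOXA13 with SU5402 and of EVX1, and by whole explants as the unit, in which cell types are mixed. Groups of 3 libraries are too small for a test of single outlying libraries.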
